A study of Sus scrofa with 9 samples.

Results

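The RANK ligand axis sets how many bone-resorbing osteoclasts a tissue forms, and 10 of its genes were followed through the formation of a pig deciduous molar. They are the ligand TNFSF11 (RANK ligand), its receptor TNFRSF11A (RANK) and decoy receptor TNFRSF11B (osteoprotegerin), the growth factor CSF1 (M-CSF) and its receptor CSF1R, the upstream hormone PTHLH, the resorption enzymes CTSK and ACP5, and the fusion proteins DCSTAMP and OCSTAMP. They were chosen by symbol among the 34580 rows of the deposited table, and all 10 were found, 8 of them under their symbol. DCSTAMP was listed as TM7SF4, its synonym in RefSeq, and TNFSF11 as LOC100037976, which carries the NCBI gene ID of TNFSF11.

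The RNA came from germs of Dm3, the third deciduous molar of the mandible, of miniature pig fetuses (Sus scrofa). Cap stage germs were taken at embryonic day 40 (E40), early bell germs at E50 and late bell germs at E60, and 3 libraries were made for each. No genotype or treatment set the stages apart, and all sows had been given ketamine and xylazine before the fetuses were removed. The methods of the study call the libraries of a stage biological replicates, and neither they nor the labels say whether these came from separate fetuses or from pooled germs, so that p-values measure the spread between these libraries.

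Osteoclasts form by fusion of precursors of the monocyte and macrophage lineage, which need M-CSF to survive and RANK ligand to differentiate. Osteoprotegerin is secreted, binds RANK ligand and keeps it from RANK. Around a tooth germ, osteoclasts open the bony crypt in which the germ grows and later the path of eruption, and the dental follicle and enamel epithelium are known sources of M-CSF, osteoprotegerin and parathyroid hormone-related protein. A germ is a mixture of cells, and fewer cells of a type cannot be told apart from less RNA per cell in these data.

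The values are FPKM, read fragments scaled by the length of the gene and by the mapped fragments of the library. Within a gene they rose in equal steps, from which the number of reads was recovered. By these reads the libraries formed sets of unlike depth. The higher set, with 14362235 to 16674750 reads, held the E50 libraries and E60 library 1. The lower set, with 938527 to 1760356 reads, held the E40 libraries and E60 libraries 2 and 3. The row LOC102158401 alone took 22.3% to 40.6% of the reads in the lower set and at most 0.576% in the higher set. Between E40 and E50 the stage and the depth set therefore cannot be told apart, while E60 has libraries in both sets and is also compared within each. A fit with the depth set as a term takes the depth difference from E60 alone, where only library 1 is in the higher set. Its values from E40 to E50 rest on that library and do not separate the stage from the depth set. As a check of the tissue, the epithelial keratin KRT5 had 858 to 3659.7 FPKM and the dental mesenchyme factor MSX1 16.3 to 50.7 FPKM over the 9 libraries. In all, 5617 rows were listed at 0 in every library, among them the epithelial cadherin CDH1 and the phosphatase ALPL, and a value listed at 0 need not mean that a gene is silent.

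The hormone was the most abundant of the 10 genes and the fusion genes were the scarcest. At E50 the mean level was 223 FPKM for PTHLH, above 99.2% of all rows, and 49.6 FPKM for CTSK, above 95.3%. ACP5, TNFRSF11B and TNFRSF11A followed, with means of 5.51, 4.52 and 2.90 FPKM. The other 5, TNFSF11, CSF1, CSF1R, DCSTAMP and OCSTAMP, stayed below 1 FPKM in each E50 library. They did not reach the filter of 1 FPKM in at least 2 libraries, and the tests cover the first 5.

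**Figure D1:**
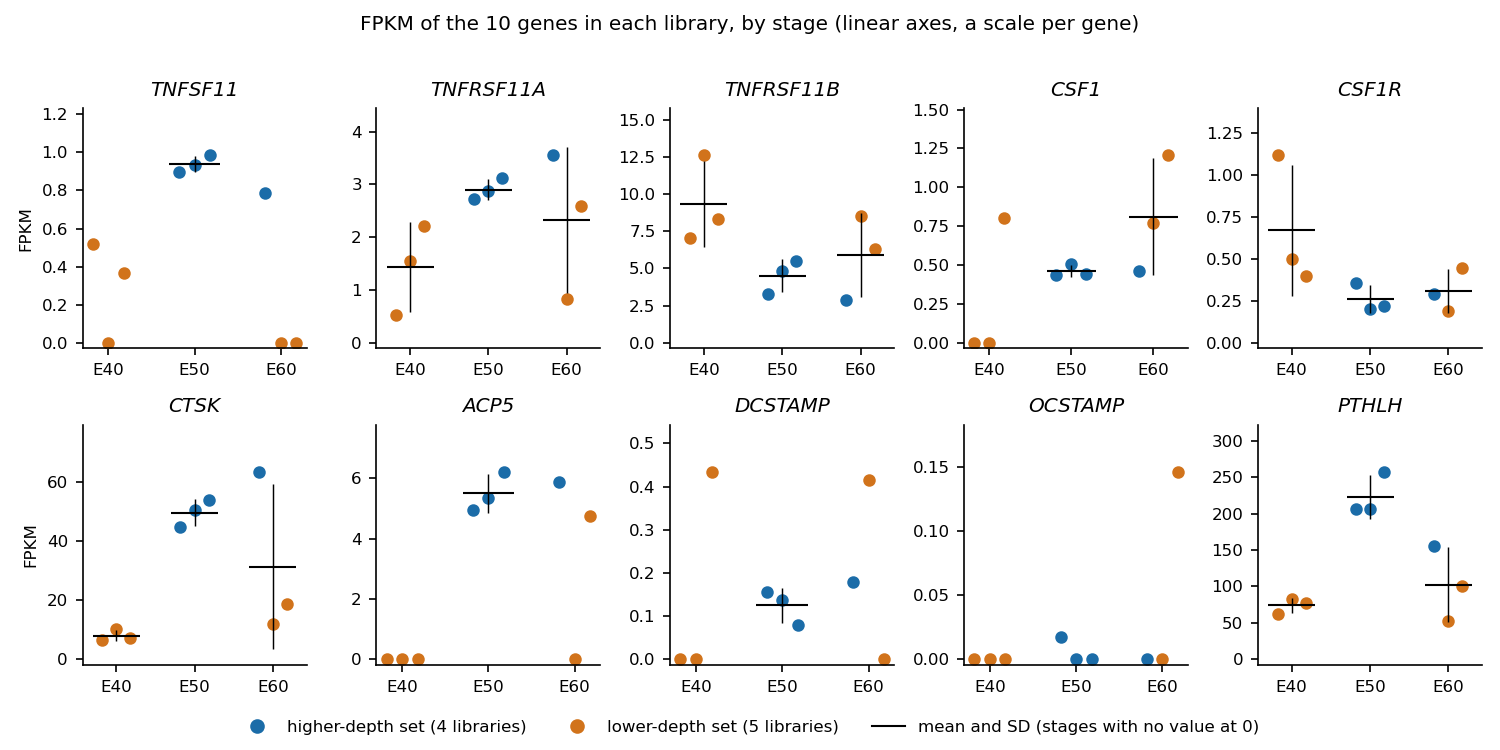
FPKM of each of the 10 genes (vertical, linear, a scale per gene) in the 3 libraries of E40, E50 and E60 (horizontal). Blue points are the 4 libraries of the higher-depth set and orange points the 5 of the lower-depth set, with the mean and SD drawn where no library of the stage was listed at 0. For CTSK and PTHLH every blue point lies above every orange point, and for TNFRSF11B every blue point lies below.

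TNFSF11, the ligand, was low at all stages. It had 1, 0 and 1 reads in the E40 libraries, or 0.520, 0 and 0.369 FPKM. The E50 libraries held 27, 32 and 29 reads, or 0.898, 0.936 and 0.984 FPKM. E60 library 1 had 26 reads, or 0.786 FPKM, and libraries 2 and 3 of that stage had none. The 4 libraries of the higher set were thus all above the 5 of the lower set, whatever their stage. At the mean E50 level, the lower set would have held 12.4 reads in all and held 2. In the lower set 3 reads were worth between 0.831 and 1.56 FPKM, about the level of the deeper libraries or more, and a difference between E40 and E60 was not detectable there. Within the higher set, E60 library 1 was below the E50 libraries, at 0.837 of their mean. This was 26 reads where 31.1 were expected at the E50 mean, too few to tell a decrease from counting error in 1 library.

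TNFRSF11B, the decoy that binds the ligand, had the opposite order. It had 7.06, 12.6 and 8.35 FPKM at E40, from 9, 18 and 15 reads, and 3.27, 4.81 and 5.48 FPKM at E50, from 65, 109 and 107 reads. At E60 the values were 2.88, 8.54 and 6.28 FPKM, from 63, 16 and 15 reads. Each E40 library was above each E50 library, and each library of the lower set was above each of the higher set. From E40 to E50 its log2 fold change was -1.02 with a standard error of 0.49 and did not pass (limma, Benjamini-Hochberg adjusted p = 0.122). It passed at the same size without E60 library 1 (limma, Benjamini-Hochberg adjusted p = 0.0231). Within the lower set the E60 mean was 0.793 of the E40 mean and the stages overlapped, and within the higher set E60 library 1 lay below the E50 libraries, at 0.636 of their mean.

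The ligand was also set against its decoy within each library. The log2 ratio of TNFSF11 to TNFRSF11B, with 0.1 FPKM added to each, was -1.75, -2.25 and -2.36 in the E50 libraries and -1.75 in E60 library 1. Osteoprotegerin exceeded its ligand by 3.64-fold to 5.57-fold in these 4 libraries. The log2 ratio was -3.53, -6.99 and -4.17 at E40 and -6.43 and -5.99 in the other E60 libraries, each from at most 1 read of TNFSF11. These values depend on the 0.1 FPKM added, most where TNFSF11 is at 0. The mean log2 ratio differed by 2.78 from E40 to E50 (exact two-sided permutation test, p = 0.1, adjusted p = 0.3 over 3 comparisons, n = 3), and 0.1 is the smallest p that 3 against 3 libraries can give. From E50 to E60 the difference was -2.60 (exact permutation p = 0.4, adjusted p = 0.6), and from E40 to E60 it was 0.17 (exact permutation p = 1). Within the higher set, E60 library 1 was 0.37 above the mean of the E50 libraries on this scale.

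**Figure D2:**
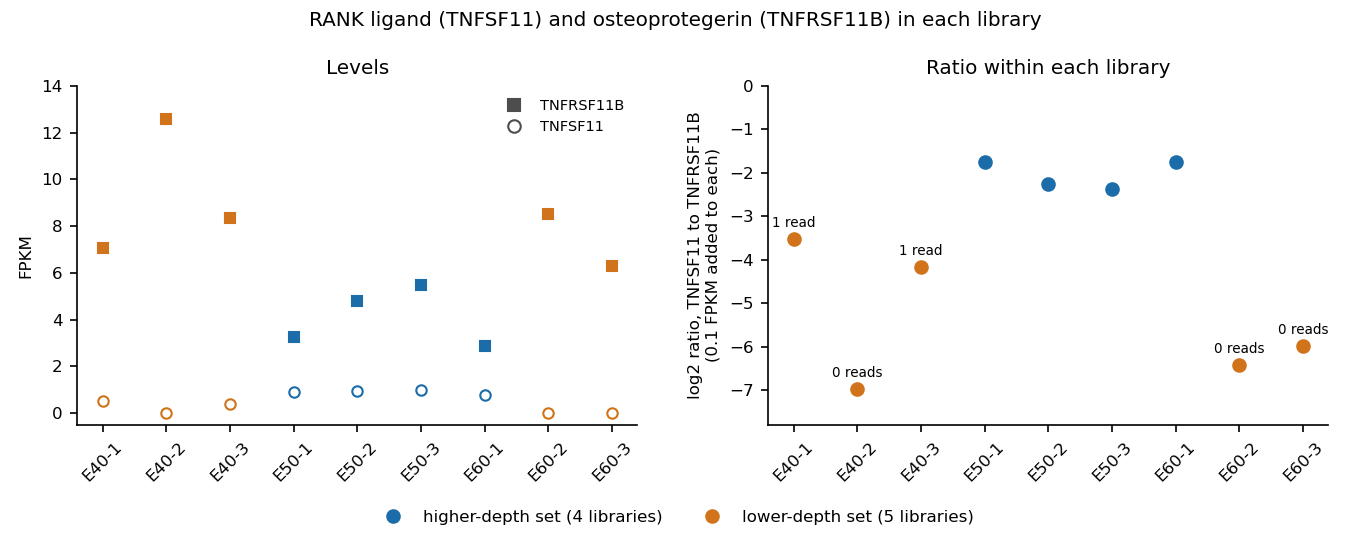
FPKM of TNFSF11 (open circles) and TNFRSF11B (squares) in each library (left), and the log2 ratio of TNFSF11 to TNFRSF11B in the same libraries (right), in blue for the higher-depth set and orange for the lower. The ratio lies between -2.36 and -1.75 in the 4 blue libraries and at or below -3.53 in the 5 orange ones, where the number of TNFSF11 reads is printed.

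TNFRSF11A, the receptor on osteoclast precursors, had 0.520, 1.55 and 2.21 FPKM at E40, the lowest of which rests on 3 reads. It had 2.72, 2.87 and 3.11 FPKM at E50 and 3.55, 0.825 and 2.59 FPKM at E60. The E50 libraries were all above the E40 libraries, and the E60 libraries overlapped both earlier stages. The log2 fold change from E40 to E50, 1.17 with a standard error of 0.70, did not pass (limma, Benjamini-Hochberg adjusted p = 0.193).

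CSF1, which keeps precursors alive, and its receptor were scarce. CSF1 had 0, 0 and 1 reads at E40, 6, 8 and 6 at E50 and 7, 1 and 2 at E60, and 0.434 to 0.509 FPKM in the higher set. CSF1R had 1.12, 0.499 and 0.397 FPKM at E40 from 4, 2 and 2 reads, 0.358, 0.205 and 0.219 FPKM at E50 from 20, 13 and 12 reads, and 0.293, 0.190 and 0.448 FPKM at E60 from 18, 1 and 3 reads. Each E40 library was above each E50 library for CSF1R, on very few reads. With no filter on low values none of the 5 scarce genes passed by limma in any comparison or had an unadjusted p under 0.05, where 23.1%, 0.0449% and 1.11% of 28963 genes passed from E40 to E50, E50 to E60 and E40 to E60.

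PTHLH encodes parathyroid hormone-related protein, which acts through the receptor PTH1R and raises RANK ligand in osteoblastic and follicle cells. It had 62.8, 82.2 and 77.5 FPKM at E40, 206, 206 and 257 FPKM at E50 and 156, 52.1 and 99.995 FPKM at E60. Every E50 library was above every E40 and E60 library, and E40 and E60 overlapped. The mean rose 3.01-fold, from 74.2 ± 10.1 FPKM at E40 to 223 ± 29.7 FPKM at E50 (SD, n = 3). This was a log2 fold change of 1.59 with a standard error of 0.42 (limma, Benjamini-Hochberg adjusted p = 0.0205). Without each E50 library in turn and without E40 libraries 1 and 2 the change did not pass, at 1.47 to 1.67 (limma, Benjamini-Hochberg adjusted p = 0.0550 to 0.0831). Few genes of any kind passed without E40 library 1, E50 library 2 or E50 library 3, at 1.09%, 0.297% and 0.297% of all genes, beside 38.6% over all 9 libraries. From E50 to E60 the log2 fold change was -1.25 and did not pass (limma, Benjamini-Hochberg adjusted p = 0.164). Within the lower set the mean was 74.2 FPKM at E40 and 76.1 FPKM at E60, and within the higher set E60 library 1 stood at 0.698 of the E50 mean. PTH1R had 1.07 to 7.59 FPKM over the 9 libraries and did not pass in any comparison.

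CTSK encodes cathepsin K, the protease with which osteoclasts degrade collagen, and some mesenchymal cells express it too. It had 6.52, 10.18 and 7.32 FPKM at E40, from 12, 21 and 19 reads. The E50 libraries had 44.6, 50.4 and 53.8 FPKM, from 1282, 1649 and 1516 reads, and the E60 libraries 63.3, 11.8 and 18.8 FPKM, from 2004, 32 and 65 reads. All E50 and E60 libraries were above all E40 libraries, while the E60 libraries lay on both sides of E50. The mean rose 6.19-fold, from 8.01 ± 1.93 FPKM at E40 to 49.6 ± 4.65 FPKM at E50 (SD, n = 3). This was a log2 fold change of 2.64 with a standard error of 0.56 (limma, Benjamini-Hochberg adjusted p = 0.0130). From E50 to E60 the log2 fold change was -1.03 (limma, Benjamini-Hochberg adjusted p = 0.203) and from E40 to E60 it was 1.61 (limma, Benjamini-Hochberg adjusted p = 0.209), and neither passed.

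Within each depth set CTSK was higher at E60 than at the earlier stage. In the lower set, the E60 libraries were above all E40 libraries, with a mean of 15.3 against 8.01 FPKM, as were 5.45% of the 19618 genes tested. In the higher set, E60 library 1 was above all E50 libraries, at 1.28 times their mean. Both held for 3.29% of all genes tested and, of the 5 members tested, for CTSK. In the fit with the depth set as a term the log2 differences were 0.92 from E40 to E60 (limma, Benjamini-Hochberg adjusted p = 0.106) and 0.36 from E50 to E60 (limma, Benjamini-Hochberg adjusted p = 1), and neither passed.

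ACP5 encodes tartrate-resistant acid phosphatase, the classical histochemical marker of osteoclasts. It was listed at 0 in the 3 E40 libraries. The E50 libraries had 4.95, 5.35 and 6.22 FPKM, from 26, 32 and 32 reads, and the E60 libraries 5.88, 0 and 4.76 FPKM, from 34, 0 and 3 reads. All E50 libraries were above the E40 libraries, and E60 overlapped both. The log2 fold change from E40 to E50, 5.80 with a standard error of 1.37 (limma, Benjamini-Hochberg adjusted p = 0.0155), depends on the 0.1 FPKM added before the logarithm. In an E40 library 3 reads of ACP5 were worth 6.33 to 8.92 FPKM, more than any E50 library had, and no fold is given. At the mean E50 level the E40 libraries would have held 6.54 reads together and held none, and E60 libraries 2 and 3 would have held 6.20 and held 3. On the recovered reads limma-voom gave a log2 fold change of 2.13 that did not pass (limma-voom, Benjamini-Hochberg adjusted p = 0.0647), while 2 members, CTSK and PTHLH, and 35% of all genes did.

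DCSTAMP and OCSTAMP, membrane proteins needed for precursors to fuse, were near the limit of detection. DCSTAMP had 0, 0 and 1 reads at E40, 4, 4 and 2 at E50 and 5, 1 and 0 at E60. OCSTAMP had 1 read in E50 library 1, 1 read in E60 library 3 and none in the other 7 libraries. No stage could be told from another for either gene at this depth. In the higher set the DCSTAMP level was 0.0800 to 0.178 FPKM, beside 44.6 to 63.3 FPKM of CTSK.

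**Figure D3:**
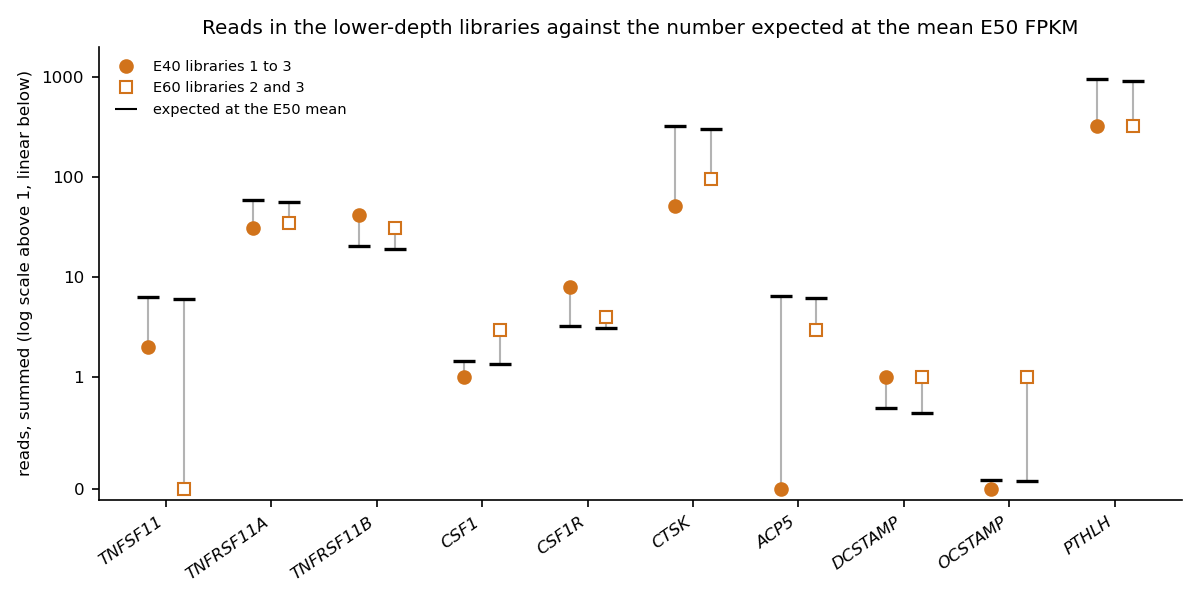
Reads of each gene summed over E40 libraries 1 to 3 (filled circles) and over E60 libraries 2 and 3 (open squares), on an axis that is logarithmic above 1 and linear below, with black bars at the number expected from the mean E50 FPKM. CTSK and PTHLH lie below the bars at both stages and TNFRSF11B above them, while CSF1, DCSTAMP and OCSTAMP have too few reads at either level for a comparison.

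From E40 to E50, 3 of the 5 members tested passed the limits, which were an adjusted p under 0.05 and at least 1 on the log2 scale. All 3 (CTSK, ACP5 and PTHLH) were higher at E50, among 38.6% of the 19618 genes tested that passed and 16.8% that passed and were higher. The median log2 fold change was 1.59 over the 5 members and 0.55 over all genes. Without overlap between the stages, 4 of the 5 members tested were higher at E50 and 1 was lower, against 45.2% and 27.8% of all genes tested. Of the members below the filter, TNFSF11 was higher and CSF1R lower without overlap, on few reads. Between the depth sets the same 4 tested members were above in the higher set and TNFRSF11B below, against 37.7% and 20.1% of all genes tested. TNFSF11 was above in the higher set too, and CSF1R overlapped. The count of 3 fell to 0 without E40 library 1, without E50 library 2 and without E50 library 3, when 1.09%, 0.297% and 0.297% of all genes passed. The log2 fold change of CTSK was then 2.50, 2.62 and 2.58, beside 2.64 over all 9 libraries, with an adjusted p of 0.0503, 0.0531 and 0.0545 by limma. That of ACP5 was 5.80, 5.82 and 5.71, with an adjusted p of 0.0519, 0.0577 and 0.0598 by limma. ACP5 was at 0 in every E40 library, so the size of its change is set by the value added before the logarithm. The change was 2.70 with 1 FPKM added and 9.10 with 0.01 FPKM, and ACP5 reached the filter only through E50 and E60 libraries. The count was 4 without E60 library 1, TNFRSF11B included, when 54.6% passed. A depth term from E40 to E50 rests on E60 library 1 and cannot separate the stage from the depth set. With the depth set as a term 0 of 5 passed, beside 0.255% of all genes. In that fit 0 of 5 had an unadjusted p under 0.05, beside 1483 of all genes tested. With median-ratio scaling, which sets the median gene nearly level, CTSK and ACP5 passed, as did 36.5% of all genes, and PTHLH was at 0.93 on the log2 scale, under the limit. This scaling moved the split of all genes that passed from 16.8% higher and 21.8% lower at E50 to 11.8% and 24.7%.

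From E50 to E60, 0 of 5 members passed over all 9 libraries, where 0.0714% of all genes did. PTHLH had an unadjusted p under 0.05 by limma and by limma-voom, as did 5923 and 4245 of the 19618 genes tested. Of the 5 members tested, PTHLH was the 1 lower at E60 without overlap, against 21.6% of all genes tested. TNFSF11, which was below the filter, was also lower without overlap, on few reads. Without E60 library 1, which leaves E60 in the lower set and E50 in the higher, CTSK fell by 1.72 and PTHLH fell by 1.62 on the log2 scale (limma, Benjamini-Hochberg adjusted p = 0.00129 and 0.00277), among 39.1% of genes that passed lower. With those 8 libraries scaled by median ratios, an alternative chosen after seeing the data, they were at -0.65 and -0.54 and did not pass, while TNFRSF11B passed at 1.77 (limma, Benjamini-Hochberg adjusted p = 0.00947), as did 25.4% of genes in that direction. With the depth set as a term 0 members passed, beside 0.107% of all genes. In that fit 0 members had an unadjusted p under 0.05, beside 739 of all genes tested.

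From E40 to E60, 0 of 5 members passed, against 1.8% of all genes. CTSK and ACP5 had an unadjusted p under 0.05 by limma, and CTSK by limma-voom, as did 3520 and 5231 of the 19618 genes tested. CTSK, the 1 member higher at E60 without overlap (3.89% of all genes), passed with median-ratio scaling of the 9 libraries at 1.72 (limma, Benjamini-Hochberg adjusted p = 0.0286, 3.65% of all genes) and of the 8 (4.87%). Without E60 library 2 it passed together with ACP5, as did 6.11% of all genes. With the depth set as a term 0 members passed, beside 5.89% of all genes. CTSK had an unadjusted p under 0.05 in that fit, as did 4905 of all genes tested.

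**Figure D4:**
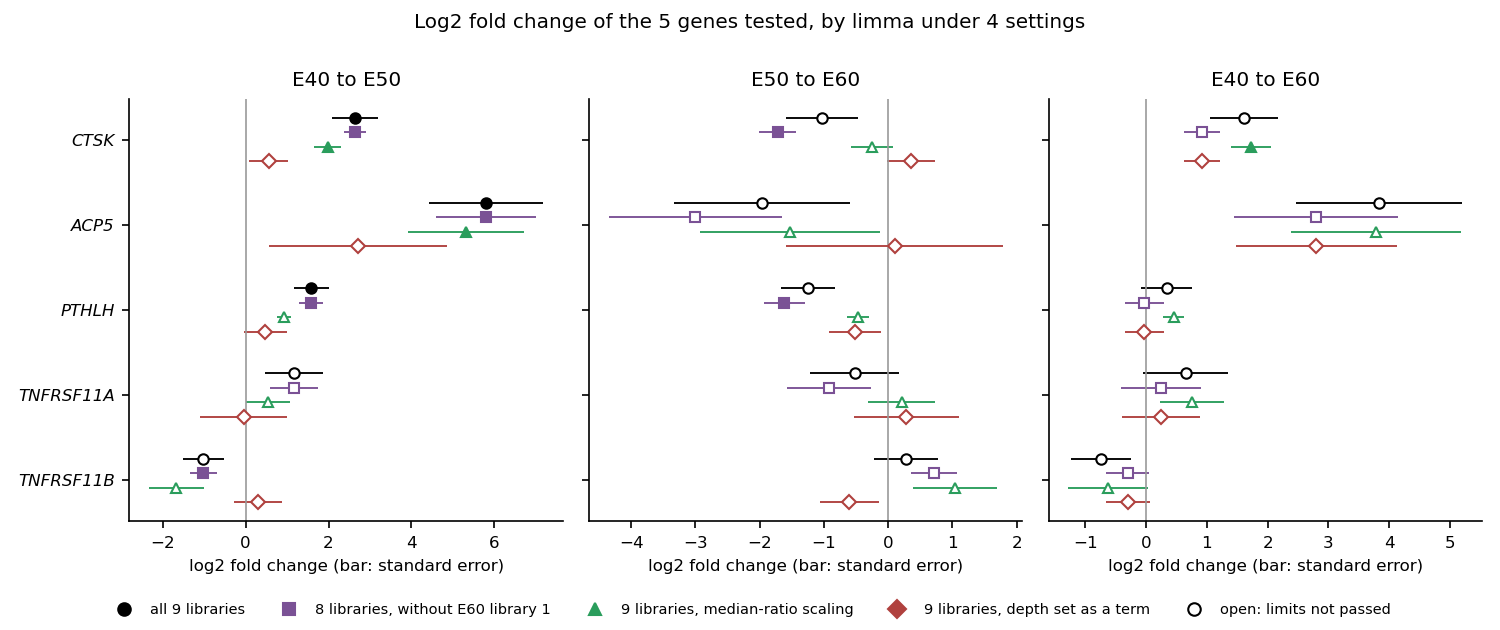
Log2 fold change with standard error (horizontal) of the 5 genes tested, in the 3 comparisons, over all 9 libraries, without E60 library 1, with median-ratio scaling and with the depth set as a term. Filled symbols passed the limits. From E40 to E50 the change of CTSK is 2.64 over all 9 libraries, 1.98 with median-ratio scaling and 0.56 with the depth set as a term.

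Other genes of osteoclast formation were taken from 4 lists. Of the signalling genes below RANK and the M-CSF receptor, 19 of 20 were tested, and 4 rose from E40 to E50, 0 fell and 15 did not pass. The median log2 fold change of the list was 0.52, beside 0.55 for all genes. With median-ratio scaling 2 rose and 1 fell, and with the depth set as a term 0 passed. FOS, an AP-1 subunit that osteoclasts require, rose by 4.06 (limma, Benjamini-Hochberg adjusted p = 0.0256). It also passed by limma-voom, at 3.13, and with median-ratio scaling, at 3.52. With 0.01 FPKM added, at 5.20, and without E40 library 1, at 2.57, it did not pass. Nor did it pass with a replicate block or without each E50 library in turn. TRAF6, the adaptor of RANK, rose by 2.29, and RELA, an NF-kB subunit, by 1.58 (limma, Benjamini-Hochberg adjusted p = 0.0489 and 0.0427), and neither passed by limma-voom (adjusted p = 0.0748 and 0.0575). NFATC1, the master transcription factor of osteoclasts, had 0.521, 1.39 and 0.738 FPKM at E40, 0.966, 0.732 and 1.09 FPKM at E50 and 1.03, 0 and 0 FPKM at E60. E60 libraries 2 and 3, listed at 0, were in the lower depth set, where a 0 need not mean that it was silent.

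From E40 to E60 limma-voom called BLNK, an adaptor of the costimulation list, lower at -1.65 (Benjamini-Hochberg adjusted p = 0.0478), and over all 9 libraries it was at -1.58 by limma and did not pass (Benjamini-Hochberg adjusted p = 0.0773). It passed by limma with the depth set as a term, at -1.46 (Benjamini-Hochberg adjusted p = 0.0207), without E60 library 1, without E60 library 2 and with 1 FPKM added before the logarithm (adjusted p = 0.0204, 0.0361 and 0.0370), and not under the other alternatives. From E50 to E60, 0 of the 43 genes tested in the 4 lists passed by limma. An unadjusted p under 0.05 was found for 12 of them, beside 5923 of all 19618 genes tested. Limma-voom called 1, WNT16 of the upstream regulators, at -2.31 (Benjamini-Hochberg adjusted p = 0.0489).

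Of the costimulation genes, 6 of 10 were tested, and 1 passed from E40 to E50. This was the adaptor BLNK, with a log2 fold change of -2.92 (limma, Benjamini-Hochberg adjusted p = 0.00701). TYROBP, the adaptor DAP12, had 1.06, 0.927 and 1.40 FPKM at E50 and 2.49, 2.24 and 2.64 FPKM at E60. TREM2, a receptor that signals through it, had 0, 0.209 and 0.122 FPKM at E50 and 0.325, 1.27 and 1.99 FPKM at E60, from 9 reads over all libraries. Neither gene passed from E50 to E60 (limma, Benjamini-Hochberg adjusted p = 0.439 and 0.164). E60 libraries 2 and 3 were in the lower depth set and the E50 libraries in the higher.

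Of the resorption genes, 10 of 16 were tested, and 1 rose, 1 fell and 8 did not pass from E40 to E50. The integrin subunit ITGAV was at 2.08 and the endosomal sorting protein SNX10 at -2.53 on the log2 scale (limma, Benjamini-Hochberg adjusted p = 0.0225 and 0.0123). ATP6V0D2, a proton pump subunit typical of osteoclasts, was listed at 0 in the E40 libraries. It had 0.225, 0.282 and 0.524 FPKM at E50 and 0.671, 0 and 0.267 FPKM at E60. It stayed below the filter of 1 FPKM and was not tested, and a 0 at the depth of the E40 libraries need not mean that it was silent. Of the upstream regulators, 8 of 14 were tested, and WNT5A, a ligand that raises RANK in precursors, rose by 1.33 from E40 to E50 (limma, Benjamini-Hochberg adjusted p = 0.0256). None of the genes of the 4 lists named here as past the limits from E40 to E50 passed with the depth set as a term. In that fit BLNK was at -2.57, near its value over all 9 libraries (limma, Benjamini-Hochberg adjusted p = 0.0835), SNX10 at -1.44, FOS at 2.07, RELA at 0.81 and WNT5A at 0.77, while ITGAV was at -0.053 and TRAF6 at -0.60.

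**Figure D5:**
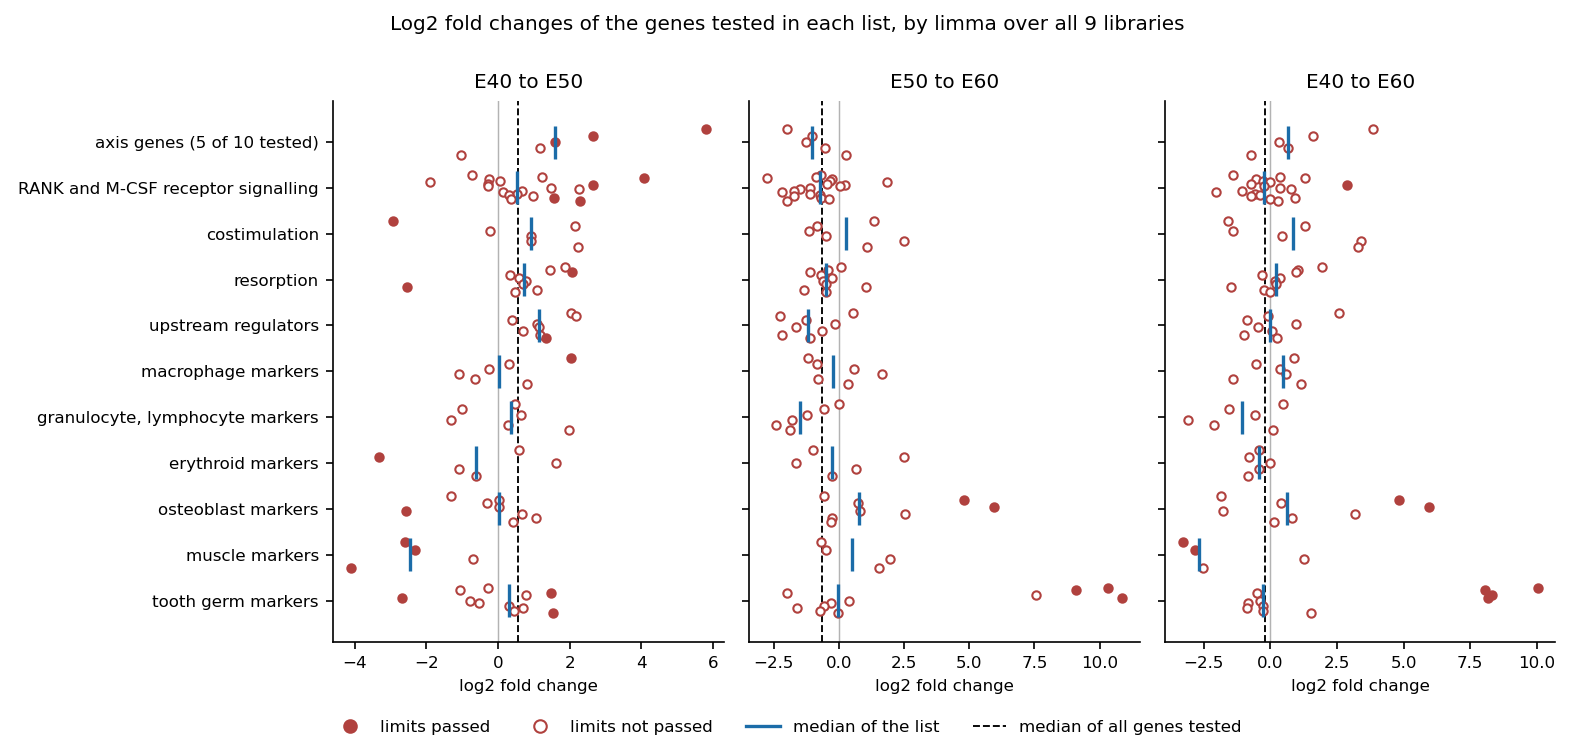
Log2 fold change (horizontal) of each gene tested, by list (vertical), in the 3 comparisons over all 9 libraries. Filled points passed the limits, blue bars are the medians of the lists and dashed lines the medians of all genes tested, 0.55, -0.64 and -0.22 from left to right. The axis genes have medians of 1.59, -1.03 and 0.65.

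Markers of other cell types were summed beside these results. The macrophage sum, over 10 markers listed, was 8.56 to 12.04 FPKM at E40, 12.8 to 16.6 at E50 and 9.39 to 27.3 at E60. Of the 6 tested, AIF1 rose by 2.04 from E40 to E50 (limma, Benjamini-Hochberg adjusted p = 0.0394), and the median of the list was 0.039. In that comparison 0 macrophage markers passed with median-ratio scaling, with the depth set as a term or by limma-voom. CD163 was listed at 0 in all 9 libraries, and the leukocyte antigen PTPRC had at most 0.921 FPKM. The sum of granulocyte and lymphocyte markers was 9.68 to 17.6, 10.52 to 14.02 and 5.88 to 8.86 FPKM at the 3 stages, with CD79B, S100A9 and S100A12 highest. Of its 6 genes tested, 0 passed from E40 to E50 by limma or limma-voom. An unadjusted p under 0.05 was found for 0 and 2 of them, beside 10134 and 10322 of all 19618 genes tested.

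The erythroid sum, most of it HBB, was 229 to 397, 729 to 1029 and 101 to 676 FPKM, and GATA1 was at -3.31 on the log2 scale from E40 to E50 (limma, Benjamini-Hochberg adjusted p = 0.0360). The muscle sum was 64.2 to 97.03, 13.8 to 19.8 and 21.6 to 114 FPKM. Of 4 muscle genes tested, ACTA1, MYOG and DES fell from E40 to E50, and ACTA1 and DES from E40 to E60. With the depth set as a term 0 erythroid and 0 muscle genes passed from E40 to E50, and 3 muscle genes fell from E40 to E60. The part of these cells in the changes of the axis was not tested.

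Markers of bone and of the tooth germ were taken from 2 further lists. Of 8 osteoblast markers tested, PHEX rose by 5.94 and DMP1 by 4.79 from E50 to E60 (limma, Benjamini-Hochberg adjusted p = 0.00678 and 0.0373), and both rose from E40 to E60. DMP1, a matrix protein of osteocytes and odontoblasts, had 0.948, 1.32 and 0.945 FPKM at E50 and 55.5, 15.9 and 36.7 FPKM at E60. RUNX2, the master factor of osteoblasts, was at -2.58 from E40 to E50 (limma, Benjamini-Hochberg adjusted p = 0.0133). With the depth set as a term 0 osteoblast markers passed in that comparison. Of 11 tooth germ markers tested, SHH and BARX1 rose and ENAM fell from E40 to E50. In that comparison 0 rose and 4 fell with median-ratio scaling, and 0 rose and 1 fell with the depth set as a term. The enamel genes AMBN, ENAM and AMEL rose from E50 to E60, and these 3 and DSPP rose from E40 to E60. Whether these genes differ from the axis genes in their change was not tested.

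Genes that varied most like each member were found by Pearson r of log2(FPKM + 0.1) over the 9 libraries, which share stages and depth sets. For CTSK they were SLC4A8 (r = 0.994) and NELL1 (r = 0.993), and for ACP5 RIMS2 (r = 0.995) and INSIG2 (r = 0.993). For PTHLH they were CXCR4 (r = 0.996) and MESDC1 (r = 0.988). HDDC2 and ZBTB18 were nearest to TNFRSF11A (r = 0.990 and 0.986), and GPSM3 and TMCO6 to TNFRSF11B (r = 0.928 and 0.924). NELL1, a secreted protein, had stage means of 7.92, 38.5 and 24.3 FPKM, and CXCR4, a chemokine receptor, 22.1, 64.9 and 30.2 FPKM. Among the members, r lay between 0.879 and 0.922 for the pairs of CTSK, ACP5 and PTHLH, and between -0.815 and -0.576 for TNFRSF11B with each of the other 4.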

How the data were processed

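RNA of Dm3 germs was depleted of rRNA and sequenced from directional libraries as 125 bp paired-end reads. The authors aligned the reads with TopHat and deposited FPKM per gene and library. The submitters' processing notes name Sscrofa10.2, the annotation is not given in the sources used here, and no positions are printed.

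The members and gene lists were chosen with earlier results of these data known. Symbols not in the table were matched through synonyms or gene IDs of RefSeq (Sscrofa11.1). Whole reads were recovered from the steps of the FPKM values, to within 0.01 read, for all 28963 rows above 0, and libraries were put in depth sets by the midpoint of their log depths. Rows reaching 1 FPKM in 2 or more libraries entered a limma 3.58.1 fit (R 4.3.3) of log2(FPKM + 0.1) with a trend, all 9 libraries and a coefficient per stage. The 0.1 FPKM added understates changes between low values above 0. Where a gene is at 0 it sets the size of the change, which may then be too large. ACP5 from E40 to E50 was at 5.80 in this fit and at 2.13 by limma-voom. P-values were adjusted by Benjamini-Hochberg over all genes tested, and a gene passed with an adjusted p under 0.05 and a change of 1 or more on the log2 scale. The floor was 3 reads per library, for counting error only. Scripts were tested on simulated data and run in Python 3.11.15 with scipy 1.17.1.

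Named were the members, each list gene that passed (for a list with none, the 3 of highest mean) and the 2 genes most like each member tested. NFATC1, WNT16, TYROBP, TREM2, ATP6V0D2, PTH1R, KRT5, MSX1, CD163, PTPRC, HBB, CDH1, ALPL and LOC102158401 were added after their values were seen. A gene of the signalling list that passed is counted but not reported here. Alternatives were other pseudocounts, filters and scalings, a replicate block, the depth set as a term, limma-voom, fits of the compared stages and leaving out each library.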

Additional observations from a re-analysis of the deposited data

How the results depend on the processing

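The count of members past the limits was 3 from E40 to E50 and 0 with the depth set as a term. From E50 to E60 it was 0, and 1 with median-ratio scaling of 8 libraries, an alternative chosen after seeing the data. From E40 to E60 it was 0, and 1 with median-ratio scaling of 9 libraries and 1 of 8. Leaving out each library in turn gave 0 to 4, 0 to 2 and 0 to 2 members. The other alternatives left these counts within 1.5 times. The log2 difference of the TNFSF11 to TNFRSF11B ratio from E40 to E60, 0.17, turned to -0.80 with a pseudocount of 0.01, to -0.0059 for reads and to -1.32 within the lower set, and that from E50 to E60, -2.60, to 0.37 within the higher set. With pseudocounts of 1 and 0.01 the difference of 2.78 from E40 to E50 was 1.49 and 3.95, and that of -2.60 from E50 to E60 was -0.92 and -4.74. Leaving out each library gave 1.73 to 3.46 from E40 to E50, -4.09 to -1.75 from E50 to E60 and -1.32 to 1.03 from E40 to E60.

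With the depth set as a term, the log2 fold change turned to -0.041 for TNFRSF11A and 0.30 for TNFRSF11B from E40 to E50, to 0.29 for TNFRSF11A, -0.60 for TNFRSF11B, 0.36 for CTSK and 0.10 for ACP5 from E50 to E60, and to -0.030 for PTHLH from E40 to E60. With median-ratio scaling TNFRSF11A turned to 0.21 from E50 to E60 (0.091 over 8 libraries), and TNFRSF11B to 0.13 from E40 to E60 over 8 libraries. Leaving out each library gave -0.93 to 0.064 for TNFRSF11A and -0.053 to 0.72 for TNFRSF11B from E50 to E60, and -0.030 to 0.76 for PTHLH from E40 to E60. The depth term was set by E60 library 1 against E60 libraries 2 and 3. The cause was not tested.

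Libraries of the same number deviated together (r over 0.1) in 1 of 9 pairs, with r between -0.515 and 0.109, no library varied most like one of its own number, and the number was not taken as a pairing. With the replicate number as a block 3, 0 and 0 members passed in the 3 comparisons. Depth limits TNFSF11, CSF1, CSF1R, ACP5, DCSTAMP and OCSTAMP in the lower set, where each had at most 4 reads in a library.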
